A study of Homo sapiens with 30 samples.

Results

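The aminoacyl-tRNA synthetases are the enzymes that load each amino acid onto its transfer RNA. Their 37 genes listed here were followed in 2 human cell lines treated with recombinant Omomyc, a small protein derived from the dimerization domain of the transcription factor MYC. Because these are bulk libraries, fewer transcripts per cell and a smaller share of cells expressing a gene cannot be told apart, and since only RPKM are given the depth is unknown. Values relative to library size can also move when other RNA in the library changes in amount. The members were taken by gene symbol from the RPKM table of 57992 genes (RPKM, reads scaled to gene length and library size), and each of the 37 was found and passed the filter on low values in every comparison. They comprised 21 genes for cytosolic enzymes and 16 for mitochondrial ones, recognised by a name ending in 2. TARSL2 also ends in 2 but encodes a cytosolic threonyl-tRNA synthetase, and it was counted with the cytosolic genes. GARS and KARS each encode both a cytosolic and a mitochondrial enzyme and were counted as cytosolic.

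Total RNA was sequenced in 30 libraries, 3 for each of 10 groups. HCT116, a colorectal carcinoma line, was untreated or treated with Omomyc at 2 or 10 µM for 6 or 24 h. Ramos, a Burkitt lymphoma B-cell line, was untreated or treated at 0.5 or 2.5 µM for 6 or 24 h. Per the study's methods Omomyc was given to HCT116 cells with ProteoJuice, a protein transfection reagent, and the lower HCT116 dose is written there as 2.5 µM while the labels say 2 µM. The wording can be read either way on whether the untreated cells received the reagent, and no such reagent is described for the Ramos libraries. Per the same methods the reagent was applied in Opti-MEM medium, with serum-containing medium added for longer incubations. Each line had 1 untreated group with no stated time point, which served 4 comparisons, so those comparisons share their control libraries. The effect of time in culture cannot be told apart from that of Omomyc. If the untreated HCT116 cells had no reagent, the effects of the reagent and of its medium cannot be told apart from it either. Nothing states that replicates came from separate cultures, so the p-values measure the spread between these libraries, which may be technical.

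Cells hold a separate set of synthetases for translation in the cytosol and in mitochondria, and both sets are encoded in the nucleus. Many of the cytosolic genes are known targets of ATF4, a transcription factor of the amino acid and stress response that binds a composite CARE element (C/EBP-ATF response element), and MYC with its partner MAX binds the E box. Tumour cells with high MYC make much protein and depend on a supply of charged tRNA. For the description below the cytosolic genes were divided into 12 long known as ATF4 targets (AARS, CARS, EPRS, GARS, IARS, LARS, MARS, NARS, SARS, TARS, WARS and YARS; the ATF4-target list) and the 9 others (DARS, FARSA, FARSB, HARS, KARS, QARS, RARS, TARSL2 and VARS). This division comes from general knowledge and was made with earlier results of these data known, so the list is not independent evidence of its direction.

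The promoter windows of the members are shown first because the results below are given by these lists. RefSeq windows (GRCh38.p14, 250 bases before to 50 after each annotated start) were at hand for 30 of the 37 genes. None was at hand for AARS2, DARS, LARS, TARSL2, VARS, VARS2 and YARS. The CARE letters TGATGNAA were searched on both strands, the other strand reading TTNCATCA. They were found in 7 of the 10 ATF4-target genes with a window, in 0 of 6 other cytosolic genes and in 1 of 14 mitochondrial genes (YARS2), against 4.46% of all 27305 genes and 3.62% of all 35116 windows. ATF4 binding sites are part of how such genes became known as ATF4 targets, so this count is a description. Each stretch below holds the match in capitals with up to 11 flanking bases a side, 5′ to 3′ on the gene's strand, with positions counted from the annotated start, whose first base is +1.
AARS (chr16:70289675-70289704, minus strand, capitals at bases -187 to -180): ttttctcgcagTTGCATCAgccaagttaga
CARS (chr11:3057407-3057436, minus strand, capitals at bases -2 to +6): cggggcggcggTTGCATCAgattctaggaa
GARS (chr7:30594834-30594863, plus strand, capitals at bases -33 to -26): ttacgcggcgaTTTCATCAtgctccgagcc
IARS (chr9:92293692-92293721, minus strand, capitals at bases -13 to -6): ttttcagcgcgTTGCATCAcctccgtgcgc
MARS (chr12:57488053-57488082, plus strand, capitals at bases -4 to +4): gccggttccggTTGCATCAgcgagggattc
NARS (chr18:57621804-57621833, minus strand, capitals at bases +15 to +22): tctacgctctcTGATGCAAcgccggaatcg
TARS (chr5:33440956-33440985, plus strand, capitals at bases +3 to +10): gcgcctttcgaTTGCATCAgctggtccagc
YARS2 (chr12:32756076-32756105, minus strand, capitals at bases -197 to -190): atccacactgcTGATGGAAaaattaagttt
In AARS, CARS, IARS, MARS and TARS the same 8 letters stood in capitals, NARS carried them on the opposite strand, and GARS differed from them within the capitals. EPRS, SARS and WARS had no match in their windows, which says only that these letters were not there. The GARS match lay in the second of its 2 annotated windows, and TARS and CARS each had a second window without a match.

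The E box CACGTG, a palindrome, stood in the windows of 4 of the 30 members with a window, against 8.77% of all genes and 7.26% of all windows. These were IARS and the mitochondrial CARS2, EARS2 and MARS2, shown because E boxes are the sites at which MYC, MAX and Omomyc are known to bind.
IARS (chr9:92293867-92293894, minus strand, capitals at bases -186 to -181): ggttcgttttcCACGTGgaggcgcaaaa
CARS2 (chr13:110706502-110706529, minus strand, capitals at bases -3 to +3): gctgggatgcaCACGTGcttcgctaaca
EARS2 (chr16:23557349-23557376, minus strand, capitals at bases -15 to -10): agggagaagccCACGTGtgctattccat
MARS2 (chr2:197705347-197705374, plus strand, capitals at bases -11 to -6): tgcgcctctcaCACGTGctgtcagaacg
IARS was the only one of the 30 genes with both a CARE and an E box, and in EARS2 a second annotated start placed the same site at base +11.

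The lines were first checked against their markers. All 6 epithelial markers (EPCAM, CDH1, KRT8, KRT18, KRT19 and CLDN4) lay between 18 and 701 RPKM on average in untreated HCT116 cells and at 0.163 RPKM or less in untreated Ramos cells. The 5 B-cell markers given here (CD79A, CD79B, MS4A1, PAX5 and PTPRC) lay between 41.1 and 384 RPKM in untreated Ramos cells and at 0.276 RPKM or less in untreated HCT116 cells. One library stood apart, replicate 3 of HCT116 at 10 µM for 6 h. The small RNA gene RN7SL1 held 207392 RPKM in it against 98291 RPKM or less for the top gene of any other HCT116 library, and its 21 cytosolic synthetases summed to 980 RPKM against 1356 and 1347 in the other replicates. For the 10 µM 6 h group the counts and medians of the lists and the values of ATF4, XPOT and the 4 largest members are also given without it. By GENCODE 22 members overlap an annotated gene on the opposite strand (AARS2 with TMEM151B, CARS2 with ING1, MARS with DDIT3, WARS with WDR25 and YARS with S100PBP among them) and 12 one on their own strand (HARS2 with ZMAT2 and VARS2 with GTF2H4 among them), so their values are less certain, and EPRS, FARSB, NARS, PARS2, RARS, RARS2, SARS, TARS and TARSL2 overlap none.

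In untreated cells most cytosolic genes stood at higher RPKM than the mitochondrial ones. In HCT116 their RPKM ran from 6.26 ± 0.21 RPKM (SD, n = 3) for TARSL2 to 175 ± 3.10 RPKM for IARS, the isoleucyl enzyme, and the mitochondrial genes from 4.97 ± 0.24 RPKM for WARS2 to 75.1 ± 0.73 RPKM for IARS2. TARSL2 lay apart from the other cytosolic genes, of which the lowest was FARSB, a subunit of the phenylalanyl enzyme, at 40.1 ± 1.43 RPKM, below IARS2. In Ramos the top gene was WARS, the tryptophanyl enzyme, which is also known as interferon-inducible, and the bottom one was PARS2, the mitochondrial prolyl enzyme.

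**Figure D1:**
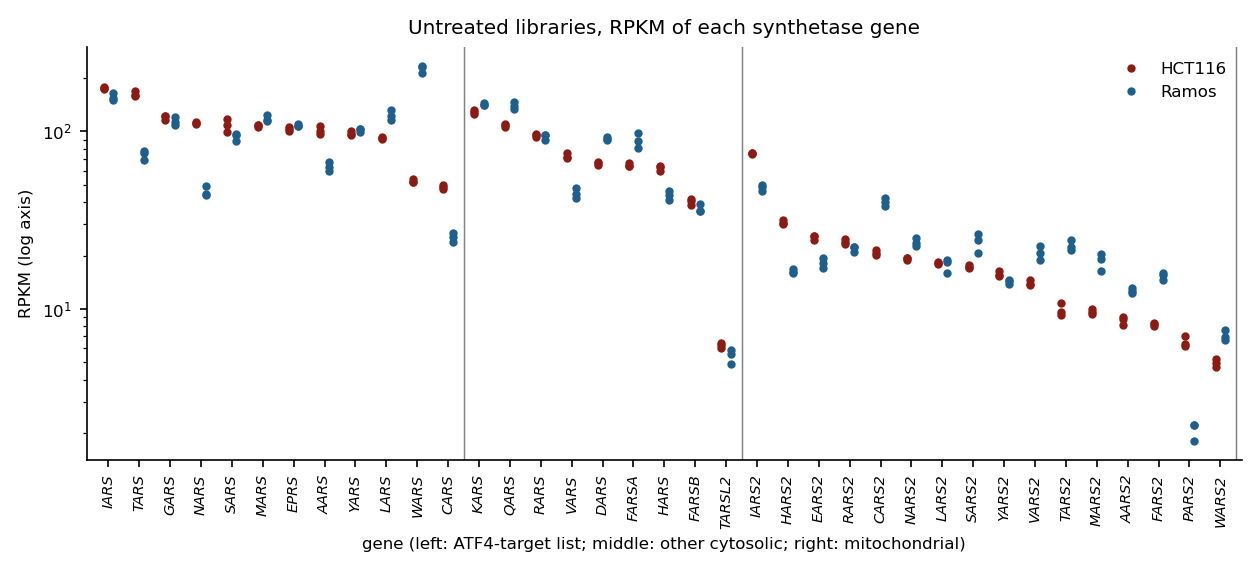
RPKM of each synthetase gene (log axis) in the 3 untreated libraries of HCT116 (red) and of Ramos (blue), one point a library. WARS lay between 213 and 234 RPKM in Ramos and between 51.9 and 53.7 RPKM in HCT116, while NARS, TARS, CARS and PARS2 lay higher in HCT116.

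The untreated lines differed in 30 of the 37 members (limma on log2(RPKM + 0.5), Benjamini-Hochberg adjusted p under 0.05, used for every call below). Of these, 14 were higher and 16 lower in HCT116 than in Ramos, against 45.7% and 39% of all genes tested, so that the members differed about as often as genes at large. WARS held 53.7, 52.1 and 51.9 RPKM in HCT116 and 230.1, 234 and 213 RPKM in Ramos. The groups lay far apart, with a log2 fold change (HCT116 minus Ramos) of -2.09 ± 0.05 (SE), adjusted p = 1.5e-08. NARS, the asparaginyl enzyme, held 109, 111 and 113 RPKM in HCT116 and 43.6, 49.0 and 44.5 RPKM in Ramos (1.27 ± 0.05 (SE), adjusted p = 3.9e-07). PARS2 held 6.34, 6.16 and 7.05 RPKM in HCT116 and 1.80, 2.22 and 2.21 RPKM in Ramos (1.45 ± 0.10 (SE), adjusted p = 5.6e-06). These were the members furthest above Ramos. TARS2, the mitochondrial threonyl enzyme, went the other way (-1.16 ± 0.08 (SE), adjusted p = 5.3e-06), while the cytosolic TARS was higher in HCT116 (1.12). Of the 16 mitochondrial genes 9 were lower and 6 higher in HCT116. When the RPKM of every library were brought to one common total (an equal sum), 25 members were higher and 5 lower, since this moved the median of all genes from 0.09 to 0.65, and WARS stayed lower.

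In HCT116 cells Omomyc was followed by lower mRNA of most cytosolic synthetases at both doses and times, and of the 15, 13, 12 and 13 cytosolic genes that were lower at 2 and 10 µM after 6 h and at 2 and 10 µM after 24 h, 11 each were on the ATF4-target list. All of its 12 genes but WARS fell at each of the 4 treatments, where 31.8%, 21.2%, 10.8% and 15.7% of all genes were lower in the same order. The median log2 fold change of the list was -0.68 at 2 µM and -0.87 at 10 µM after 6 h, and -0.35 and -0.34 after 24 h. The median of all genes tested was -0.12, -0.11, 0.04 and 0.02 in the same order. Among the 9 other cytosolic genes 4, 2, 1 and 2 were lower and none higher, counts of 9 that lie near those shares, with medians of -0.06, -0.36, -0.01 and -0.02. At 10 µM after 6 h replicate 3 weighed on these medians: without it they were -0.74 for the ATF4-target list, -0.19 for the other cytosolic genes (5 of 9 lower) and -0.03 for the mitochondrial genes (-0.19 with it), and -0.07 for all genes, of which 31.1% were then lower and 20.1% higher.

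**Figure D2:**
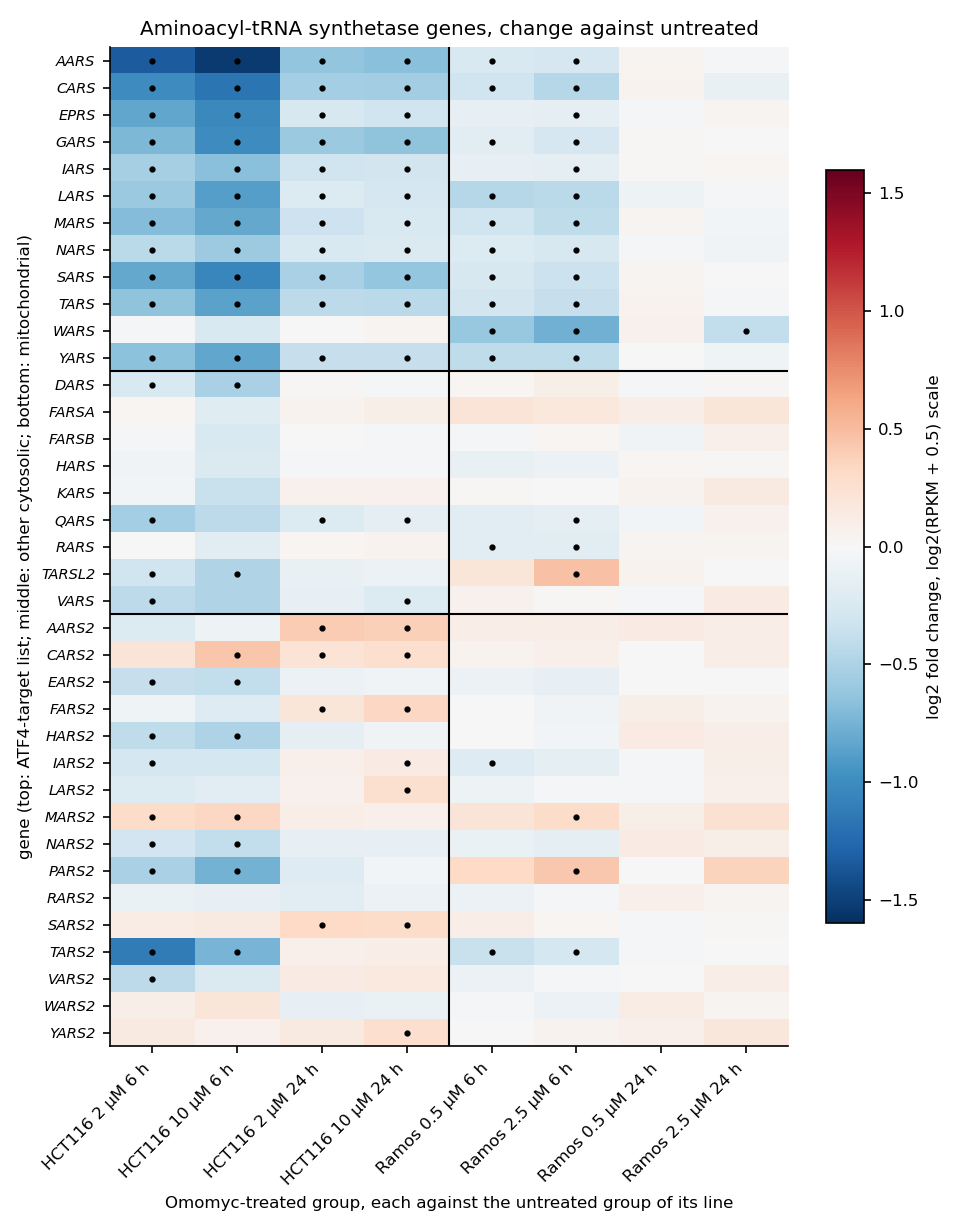
Log2 fold change of the 37 synthetase genes (rows) in each treated group against the untreated group of its line (columns), with a dot where the adjusted p was under 0.05. In the upper block 11 of 12 genes fell in every HCT116 column with WARS as the pale row, and in the 24 h Ramos columns WARS at 2.5 µM holds the only dot.

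AARS, the alanyl enzyme, changed most of the members in each HCT116 comparison with untreated cells. It held 100.5, 96.0 and 107 RPKM in untreated cells, 39.9, 35.6 and 44.3 at 2 µM and 41.4, 40.9 and 24.7 at 10 µM after 6 h, and 62.7, 69.7 and 62.0 and 63.8, 62.7 and 63.1 at these doses after 24 h. No treated library reached the lowest untreated one. The log2 fold changes were -1.33 ± 0.08 (SE), adjusted p = 1.2e-05 at 2 µM and -1.53 ± 0.20 (SE), adjusted p = 0.0022 at 10 µM after 6 h, and -0.64 ± 0.06 (SE), adjusted p = 3.5e-04 and -0.67 ± 0.05 (SE), adjusted p = 3.1e-05 after 24 h. CARS, the cysteinyl enzyme, held 47.1, 48.6 and 49.9 RPKM untreated and 32.4, 33.7 and 32.5 at 10 µM after 24 h (-0.55 ± 0.05 (SE), adjusted p = 6.2e-05), and fell by 1.16 on the log2 scale at that dose after 6 h (adjusted p = 0.0018).

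**Figure D3:**
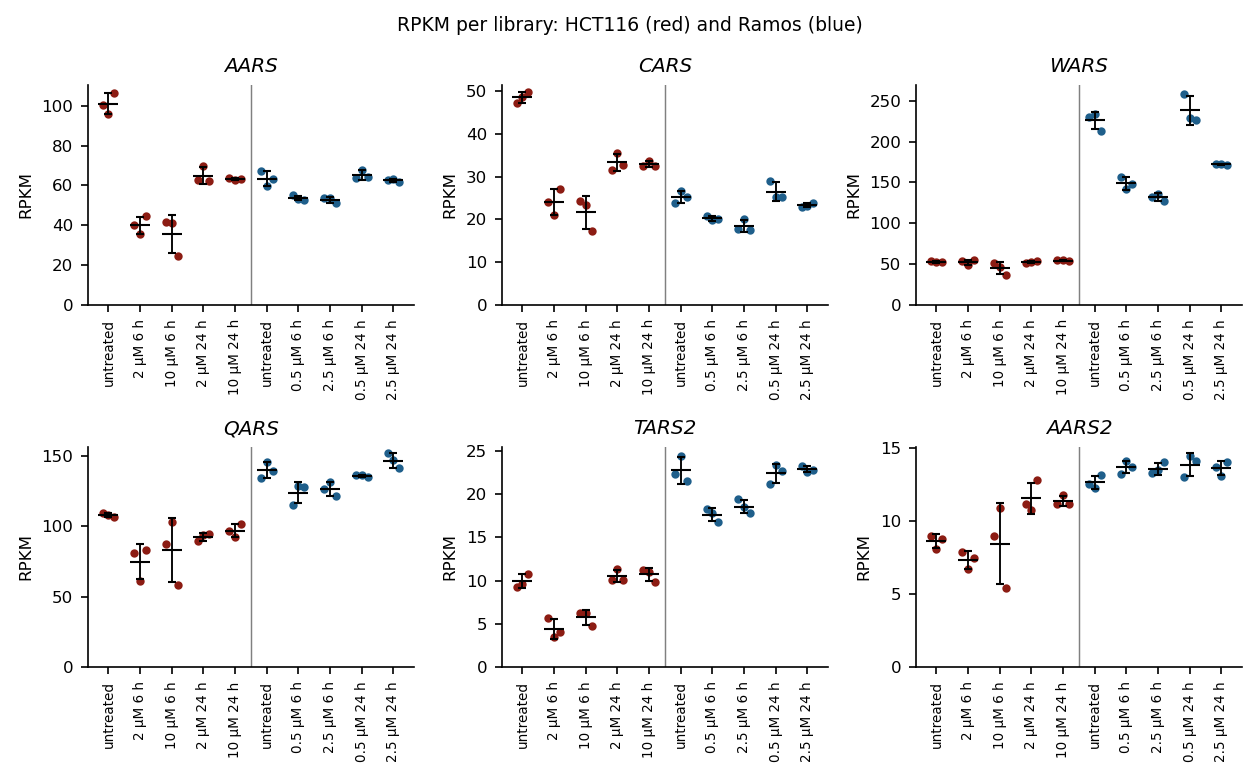
RPKM per library of AARS, CARS, WARS, QARS, TARS2 and AARS2 in the 5 HCT116 groups (red) and the 5 Ramos groups (blue), with the mean (bar) and SD of each group of 3. AARS and CARS lay lower in every treated HCT116 library, WARS fell in the Ramos groups at 6 h and at 2.5 µM after 24 h, and AARS2 rose in HCT116 at 24 h.

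At 10 µM after 24 h 13 members were lower and 7 higher, against 15.7% and 19.5% of all genes. GARS, which charges glycine, went from 122, 115 and 122 RPKM to 75.1, 75.2 and 79.7 (-0.64 ± 0.05 (SE), adjusted p = 3.2e-05). SARS, the seryl enzyme, went from 99.6, 108 and 117 RPKM to 71.0, 75.4 and 64.1 (-0.62 ± 0.07 (SE), adjusted p = 3.0e-04). TARS, the threonyl enzyme, went from 158, 159 and 168 RPKM to 123, 121 and 115 (-0.43 ± 0.05 (SE), adjusted p = 2.4e-04). In these 3 genes the groups lay well apart. YARS, the tyrosyl enzyme, went from 95.9, 96.5 and 100.3 RPKM to 78.5, 76.6 and 72.4 (-0.36 ± 0.05 (SE), adjusted p = 6.0e-04). EPRS, a fused enzyme for glutamate and proline, went from 103, 101 and 106 RPKM to 82.1, 84.7 and 81.3 (-0.32 ± 0.05 (SE), adjusted p = 7.5e-04), and IARS from 175, 173 and 179 to 142, 147 and 139.8 (-0.29 ± 0.05 (SE), adjusted p = 0.0014). In all 8 genes, AARS and CARS included, every treated library lay below every untreated one. They were picked as past the threshold with the largest changes, so this separation follows largely from that choice. Of all genes 46.2% had an unadjusted p under 0.05 in this comparison (limma). Outside the list QARS, the glutaminyl enzyme, went from 109.6, 108 and 106 RPKM to 96.8, 92.6 and 102 (-0.16 ± 0.05 (SE), adjusted p = 0.036), and VARS, the valyl enzyme, was lower too (-0.22, adjusted p = 0.014).

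WARS was the exception on the list. It held 53.7, 52.1 and 51.9 RPKM untreated, 52.8, 48.8 and 54.8 and 51.0, 46.1 and 36.7 at 2 and 10 µM after 6 h, and 50.9, 52.2 and 53.4 and 54.3, 54.7 and 53.0 after 24 h. Apart from replicate 3 of the 10 µM 6 h group, the library that stood apart, the treated libraries lay between 46.1 and 54.8 RPKM, around the untreated 51.9 to 53.7 RPKM. Its log2 fold changes were -0.01, -0.25, -0.01 and 0.04, none past the threshold, the second being -0.11 without replicate 3. After an equal-sum rescaling, which moved the median of all genes at 6 h to -0.42 and -0.56, all 12 genes were lower at 6 h.

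No mitochondrial gene passed the test as lower at 24 h, where 10.8% and 15.7% of all genes were lower at 2 and 10 µM. At 10 µM 7 of the 16 rose, against 19.5% of all genes, namely AARS2, CARS2, FARS2, IARS2, LARS2, SARS2 and YARS2. The list median was 0.12. AARS2, the mitochondrial alanyl enzyme, went from 9.01, 8.08 and 8.76 RPKM to 11.2, 11.8 and 11.2 (0.39 ± 0.07 (SE), adjusted p = 0.0025). FARS2, the phenylalanyl one, went from 8.26, 8.05 and 8.34 RPKM to 9.73, 11.5 and 10.2 (0.33 ± 0.08 (SE), adjusted p = 0.0091). SARS2, the seryl one, went from 17.2, 17.6 and 17.0 RPKM to 19.9, 22.7 and 21.3 (0.29 ± 0.06 (SE), adjusted p = 0.0059). The cytosolic SARS fell in the same libraries. CARS2, the cysteinyl one, went from 20.6, 21.6 and 20.1 RPKM to 25.7, 23.8 and 25.9 (0.27 ± 0.06 (SE), adjusted p = 0.006). The groups did not overlap in any of these 4 genes, which were also picked for the largest changes past the threshold. The overlapping transcripts of SARS2 and its neighbour MRPS12 lie on opposite strands, and whether strand was used in the counting is not stated. The rises were small: after the equal-sum rescaling no mitochondrial gene was higher past the threshold (0 members higher and 14 lower, IARS2 turning from 0.13 to -0.05). None was higher either in a fit that shared the spread of all 5 HCT116 groups, which leaves the fold changes as they are. That spread includes the 10 µM 6 h group with the library that stood apart (AARS2 SD 2.79 RPKM there and 0.36 at 10 µM after 24 h). That shared fit left 6 members lower, all on the ATF4-target list.

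At 2 µM after 24 h 12 members were lower and 4 higher, against 10.8% and 16.6% of all genes. The higher ones were AARS2 (0.40), SARS2 (0.32), CARS2 (0.22) and FARS2 (0.19). GARS stood at 78.0, 83.3 and 75.9 RPKM (-0.60 ± 0.05 (SE), adjusted p = 2.1e-04), CARS at 31.6, 35.5 and 32.8 (-0.54 ± 0.05 (SE), adjusted p = 4.8e-04) and SARS at 74.5, 79.7 and 72.7 (-0.51 ± 0.06 (SE), adjusted p = 0.001). With an equal sum 18 were lower and none higher, and in the fit over all 5 groups 5 were lower, all on the list. The doses were close at 24 h: between 10 and 2 µM no member passed the threshold in limma, against 0.14% of all genes higher and 0.0399% lower, 1 member passed an unadjusted p under 0.05, and the differences ran from -0.11 to 0.18. This does not show that the doses act alike.

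At 6 h the fall reached further. At 2 µM 22 members were lower and 1 higher, but 31.8% of all genes were lower there and 15.5% higher. TARS2 fell almost as much as AARS, from 9.26, 9.64 and 10.8 RPKM to 5.62, 3.42 and 4.00 (-1.12 ± 0.15 (SE), adjusted p = 4.4e-04). CARS stood at 24.0, 21.0 and 27.2 RPKM (-1.005 ± 0.09 (SE), adjusted p = 6.4e-05) and EPRS at 64.7, 51.0 and 58.8 (-0.83 ± 0.08 (SE), adjusted p = 1.2e-04). All 3 groups lay below every untreated library. Mitochondrial genes were lower in 7 cases, TARS2, PARS2, VARS2, HARS2, EARS2, NARS2 and IARS2, and MARS2 alone was higher (0.29 ± 0.07 (SE), adjusted p = 0.01), though at -0.03 with an equal sum. QARS varied widely, with 80.9, 60.8 and 83.1 RPKM (-0.54 ± 0.11 (SE), adjusted p = 0.0032), and TARSL2 went from 6.29, 6.45 and 6.04 RPKM to 4.85, 5.12 and 4.86 (-0.31 ± 0.09 (SE), adjusted p = 0.015). With median-ratio scaling the split was 5 higher and 18 lower, with the same count of 11 lower on the ATF4-target list.

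At 10 µM after 6 h 18 members were lower and 2 higher (CARS2, 0.44, and MARS2, 0.33), against 21.2% and 8.84% of all genes. SARS stood at 56.8, 56.7 and 44.4 RPKM (-1.04 ± 0.13 (SE), adjusted p = 0.002), EPRS at 57.2, 59.1 and 38.0 (-1.03 ± 0.17 (SE), adjusted p = 0.0052) and CARS at 24.3, 23.3 and 17.3 (-1.16 ± 0.14 (SE), adjusted p = 0.0018). In each the lowest library was replicate 3, and the other pair still lay below every untreated library. Without replicate 3 the counts were 22 lower and 4 higher, with 11 of the ATF4-target list lower. AARS was then at -1.28 (adjusted p = 1.1e-05), and CARS, SARS and EPRS were at -1.01, -0.92 and -0.82. Without untreated replicate 1, 2 or 3 the members called fell to 12, 13 and 10, with 10, 10 and 8 lower on that list. With an equal sum 27 were lower and none higher, and CARS2 and MARS2 turned to -0.04 and -0.14.

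In HCT116 the members called between 6 and 24 h were higher at 24 h. At 2 µM 18 were higher at 24 h and none lower, against 30.9% and 9.85% of all genes. TARS2 recovered to 10.1, 11.4 and 10.1 RPKM (1.21 ± 0.15 (SE), adjusted p = 7.2e-04). AARS (0.69 ± 0.09 (SE), adjusted p = 7.7e-04), AARS2 (0.62 ± 0.10 (SE), adjusted p = 0.0019) and EPRS (0.57 ± 0.10 (SE), adjusted p = 0.0026) followed. AARS and CARS nonetheless stayed below every untreated library at 24 h. The median of all genes moved by 0.16 as well, and with median-ratio scaling 6 were higher and 4 lower, and without 24 h replicate 2 the count was 11. At 10 µM 7 were higher, against 5.8% of all genes, and none lower (2.06%), led by AARS (0.85), TARS2 (0.85), PARS2 (0.72) and EPRS (0.71). With median-ratio scaling 3 were higher and 1 lower. The count rested on single libraries: it was 21 (19 higher and 2 lower) without replicate 3 of the 6 h group, 1 without its replicate 1, and 0 without any one of the 24 h libraries.

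In Ramos cells most genes of the ATF4-target list fell at 6 h, and at 24 h WARS at 2.5 µM was the only member past the threshold. At 2.5 µM after 6 h all 12 genes of the ATF4-target list were lower, and at 0.5 µM 10 of 12. The list medians were -0.36 and -0.28, where the median of all genes was 0.03 and 0.02. Over all members 15 were lower and 3 higher at 2.5 µM, against 10.7% and 17.3% of all genes, and 13 lower and 0 higher at 0.5 µM, against 9.73% and 13.8%.

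WARS, the gene that did not pass in HCT116, fell most in Ramos. It held 230.1, 234 and 213 RPKM untreated, 157, 141 and 148 at 0.5 µM and 132, 136 and 127 at 2.5 µM after 6 h. Every 6 h library lay below every untreated one. The log2 fold changes were -0.60 ± 0.06 (SE), adjusted p = 2.1e-04, and -0.77 ± 0.05 (SE), adjusted p = 3.4e-05. After 24 h it held 259, 229 and 227 at 0.5 µM and 172, 173 and 172 RPKM at 2.5 µM. At the lower dose 2 libraries lay within the untreated range and 1 above it (0.07, adjusted p = 0.87), and at the higher dose all 3 lay below it (-0.39 ± 0.04 (SE), adjusted p = 0.005). The latter passed under all 3 rescalings, at -0.18 with an equal sum, and its adjusted p was 0.072 when the variance trend was left out.

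The other large changes at 6 h were smaller. LARS, the leucyl enzyme, went from 132, 117 and 122 RPKM to 93.0, 88.2 and 87.9 at 0.5 µM (-0.46 ± 0.05 (SE), adjusted p = 6.2e-04) and 95.3, 90.9 and 89.3 at 2.5 µM (-0.43 ± 0.05 (SE), adjusted p = 6.8e-04). YARS went from 103, 103 and 99.5 RPKM to 77.9, 78.8 and 73.3 at 0.5 µM (-0.41 ± 0.05 (SE), adjusted p = 5.3e-04), and CARS from 23.9, 26.7 and 25.3 to 17.7, 19.9 and 17.4 at 2.5 µM (-0.45 ± 0.07 (SE), adjusted p = 0.002). The groups lay apart in all 3. AARS, first in HCT116, went from 67.2, 59.8 and 63.2 RPKM to 54.9, 53.2 and 52.7 and 53.4, 53.8 and 50.9 (-0.24 and -0.26), and its untreated level was lower than in HCT116. QARS stood at 134, 146 and 139 RPKM untreated, 115, 129 and 128 at 0.5 µM and 126, 131 and 121 at 2.5 µM. It was at the threshold at both doses (-0.17, adjusted p = 0.053, and -0.15, adjusted p = 0.048).

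3 members moved the other way at 2.5 µM. TARSL2 rose from 5.58, 5.89 and 4.89 RPKM to 7.48, 8.08 and 7.62 (0.47 ± 0.09 (SE), adjusted p = 0.0058), in libraries in which TARS fell (-0.37). MARS2, the mitochondrial methionyl enzyme (0.29), and PARS2 (0.43) rose as well. TARS2 was the mitochondrial gene that fell at both doses, from 22.3, 24.5 and 21.5 RPKM to 18.3, 17.9 and 16.8 (-0.36 ± 0.07 (SE), adjusted p = 0.0058) and 19.4, 18.5 and 17.8 (-0.29). With an equal sum, which moved the median of all genes to 0.11 and 0.16, the splits were 1 higher and 3 lower at 0.5 µM and 6 higher and 7 lower at 2.5 µM. At 0.5 µM the count was 8 without replicate 2 or replicate 3 of the treated group.

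At 24 h in Ramos no member passed at 0.5 µM in limma, none had an unadjusted p under 0.05, and 0.0146% and 0% of all genes were higher and lower. The changes ran from -0.08 to 0.13. At 2.5 µM WARS alone passed, against 1.31% of all genes lower and 3.3% higher. With an equal sum 24 members were higher and 1 lower there, as this moved the median of all genes to 0.24, and without untreated replicate 3 the count was 3. The rise from 6 to 24 h was itself past the threshold in 16 members at 0.5 µM with none lower, against 11.9% and 13.5% of all genes, and in 9 with an equal sum. At 2.5 µM it was 18 with 1 lower, against 12.7% and 10.4%. On the ATF4-target list 11 and 12 of 12 rose, with medians of 0.33 and 0.34. WARS rose by 0.67 and 0.38, LARS by 0.38 and 0.41, MARS, the cytosolic methionyl enzyme, by 0.36 and 0.37, and TARSL2 fell back at 2.5 µM (-0.46 ± 0.07 (SE), adjusted p = 0.0025).

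The lines were then compared directly through an interaction term, the HCT116 log2 fold change minus the Ramos one. At 24 h the doses compared were 10 µM and 2.5 µM. The difference was negative for 14 members and positive for 2, against 12.9% and 9.65% of all genes. AARS (-0.65 ± 0.07 (SE), adjusted p = 1.5e-04), GARS (-0.63 ± 0.07 (SE), adjusted p = 2.0e-04), SARS (-0.63 ± 0.10 (SE), adjusted p = 0.0013) and CARS (-0.44 ± 0.07 (SE), adjusted p = 0.0011) differed most. In Ramos at 24 h none of the 4 passed, with changes of -0.02, -0.01, 0.00 and -0.11. WARS (0.43 ± 0.05 (SE), adjusted p = 4.6e-04) and AARS2 (0.28 ± 0.08 (SE), adjusted p = 0.023) were the 2 with a positive difference. Of the ATF4-target list 10 genes differed negatively. Without replicate 2 of Ramos at 2.5 µM 24 h the count was 10, and with an equal sum all 28 differences were negative.

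**Figure D4:**
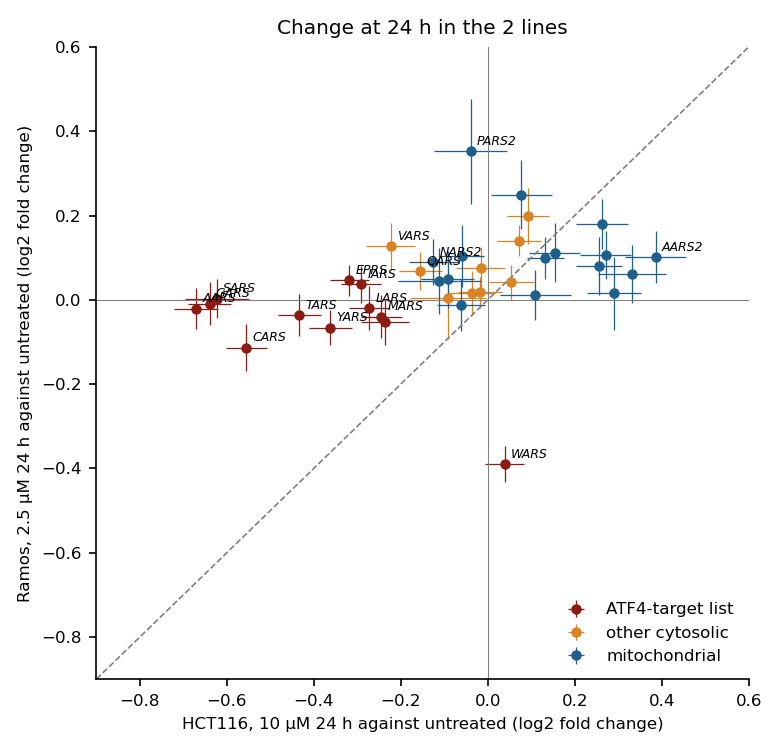
Log2 fold change against untreated at 24 h in HCT116 at 10 µM (x axis) and in Ramos at 2.5 µM (y axis), one point a gene with its standard errors, coloured by class and named where the difference between the lines passed an adjusted p of 0.05 (dashed line: equal change). The ATF4-target genes AARS, GARS, SARS and CARS lie far to the left and between -0.11 and 0 on the y axis, where WARS lies at -0.39.

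At 6 h, with 2 µM in HCT116 and 2.5 µM in Ramos, 18 members differed negatively and WARS positively (0.76 ± 0.08 (SE), adjusted p = 2.6e-05), against 28.4% and 12.2% of all genes. AARS (-1.07 ± 0.11 (SE), adjusted p = 2.6e-05), PARS2 (-0.94 ± 0.15 (SE), adjusted p = 5.3e-04), TARS2 (-0.84 ± 0.19 (SE), adjusted p = 0.0039) and TARSL2 (-0.78 ± 0.10 (SE), adjusted p = 1.7e-04) led. PARS2 went from 6.34, 6.16 and 7.05 RPKM to 5.09, 4.43 and 3.78 in HCT116 and from 1.80, 2.22 and 2.21 to 2.97, 2.91 and 2.98 in Ramos. TARSL2 and PARS2 thus moved in opposite directions in the lines. With median-ratio scaling 4 differed positively and 10 negatively, and with an equal sum all 34 were negative.

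The ratio of summed cytosolic to summed mitochondrial RPKM needs no scaling between libraries. In HCT116 it was 6.24 ± 0.0627 (SD, n = 3) untreated, 5.12 ± 0.185 and 4.42 ± 0.225 at 2 and 10 µM after 6 h, and 5.06 ± 0.166 and 4.85 ± 0.118 after 24 h. No treated HCT116 library reached the lowest untreated one, and the library that stood apart, at 4.21, was the lowest of its group, with the others at 4.66 and 4.39. In Ramos it was 5.98 ± 0.251 untreated, 5.35 ± 0.0524 and 5.16 ± 0.085 at 0.5 and 2.5 µM after 6 h, and 5.92 ± 0.156 and 5.56 ± 0.0919 after 24 h. The Ramos 6 h libraries all lay below the untreated ones, while those at 0.5 µM after 24 h lay inside the untreated range and those at 2.5 µM after 24 h, at 5.67, 5.49 and 5.53, below the lowest untreated one, at 5.73. The difference of the class medians, cytosolic minus mitochondrial, was -0.32, -0.40, -0.31 and -0.36 on the log2 scale in HCT116, in the order of the ratios, and -0.16, -0.16, -0.02 and -0.09 in Ramos. ATF4-target list medians in this order were -0.68, -0.87, -0.35 and -0.34 in HCT116 and -0.28, -0.36, 0.03 and -0.03 in Ramos. The 9 other cytosolic genes had -0.06, -0.36, -0.01 and -0.02, and 0.01, 0.02, 0.03 and 0.07. The mitochondrial genes had -0.21, -0.19, 0.08 and 0.12, and -0.01, -0.02, 0.04 and 0.09. The difference thus lay mostly in the ATF4-target list. The other cytosolic genes stood above the mitochondrial ones at 2 µM after 6 h in HCT116.

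**Figure D5:**
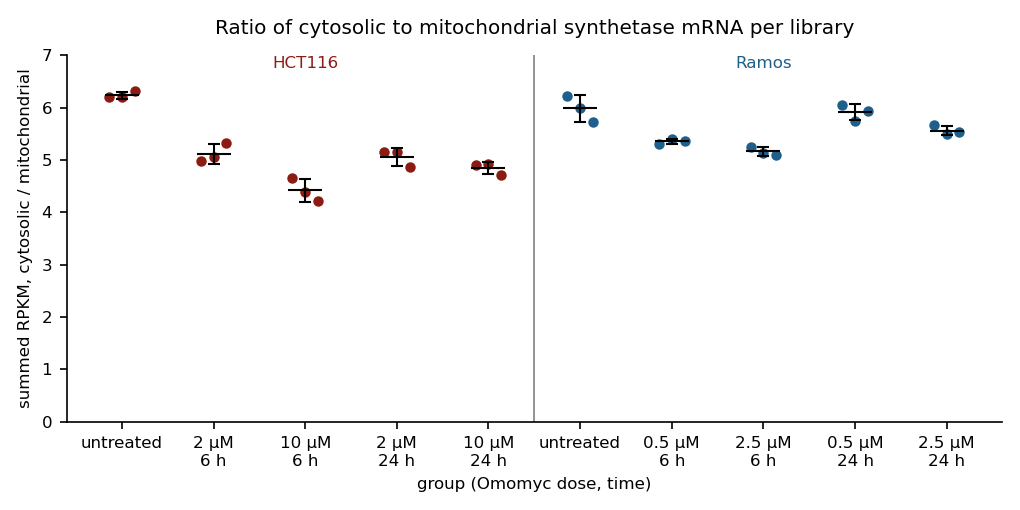
Summed RPKM of the 21 cytosolic genes divided by that of the 16 mitochondrial genes, one point a library, with the mean (bar) and SD of each group of 3. The untreated HCT116 libraries lie between 6.19 and 6.31 and the treated ones at 5.33 or below, and the Ramos groups lie between 5.09 and 6.23.

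Genes that work with the synthetases were taken from lists of general knowledge. ATF4 itself held 287, 308 and 333 RPKM in untreated HCT116 and 209.8, 207 and 192 at 10 µM after 24 h. It fell by 0.53, 0.76, 0.55 and 0.61 on the log2 scale in the HCT116 comparisons in the order above (adjusted p = 1.8e-04 for the last), the second being 0.78 without replicate 3. In Ramos it fell by 0.26 and 0.28 at 6 h, and its changes at 24 h were 0.02 and 0.03. Of ATF4 and 12 other genes known as its targets, 10, 11, 10 and 11 of 13 were lower in HCT116 (11 also without replicate 3), where 10.8% to 31.8% of all genes were. In Ramos 5 and 9 were lower after 6 h, against 9.73% and 10.7% of all genes. At each dose 1 was higher there, against 13.8% and 17.3% of all genes. After 24 h in Ramos none was lower, against 0% and 1.31% of all genes. There 0 and 1 were higher, against 0.0146% and 3.3%. Among the lower ones in HCT116 at 10 µM after 24 h were ASNS, which makes asparagine (-1.57 ± 0.07 (SE), adjusted p = 1.6e-06), the serine-synthesis genes PHGDH (-1.15) and PSAT1 (-1.01), and CHAC1, which degrades glutathione (-2.23), while the amino acid transporter subunit SLC3A2 was higher (0.23). DDIT3, another known target, overlaps MARS on the opposite strand, and its change there was -0.43.

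8 cytosolic members sit in the multisynthetase complex (DARS, EPRS, IARS, KARS, LARS, MARS, QARS and RARS), of which 6, 5, 5 and 5 fell in HCT116 (6 at 10 µM after 6 h without replicate 3) and 3 and 6 in Ramos at 6 h, beside 31.8%, 21.2%, 10.8% and 15.7% of all genes in HCT116 and 9.73% and 10.7% in Ramos. EPRS, IARS, LARS and MARS are also on the ATF4-target list, so these counts partly repeat those of that list. None of the 3 scaffold genes of the complex (AIMP1, AIMP2 and EEF1E1) passed the test as lower in any comparison with untreated cells. AIMP1 held 21.2, 21.4 and 21.9 RPKM untreated and 34.5, 32.8 and 28.1 at 2 µM after 6 h (0.55 ± 0.08 (SE), adjusted p = 6.9e-04). EEF1E1 (0.70 ± 0.10 (SE), adjusted p = 5.4e-04) and AIMP2 (0.27 ± 0.07 (SE), adjusted p = 0.015) rose too, and of the 3 scaffolds 1, 0 and 2 rose in the other HCT116 comparisons (2 at 10 µM after 6 h without replicate 3), where 8.84%, 16.6% and 19.5% of all genes were higher, and 15.5% at 2 µM after 6 h. XPOT, which exports tRNA from the nucleus, held 49.5, 50.05 and 51.2 RPKM untreated and 41.0, 38.3 and 39.1 at 10 µM after 24 h, and was lower in all 4 HCT116 comparisons (-0.33, -0.41 or -0.42 without replicate 3, -0.33 and -0.35) and in none of the 4 in Ramos. Of the 10 genes of tRNA maturation and export 5, 3, 2 and 2 were lower in HCT116 and 0, 0, 1 and 2 higher (5 and 1 at 10 µM after 6 h without replicate 3). These stand beside the shares of all genes just given. In Ramos 2 were higher at each dose after 6 h, where 13.8% and 17.3% of all genes were. There 0 and 1 were lower, against 9.73% and 10.7% of all genes. At 24 h 0 and 1 were higher and none lower, against 0.0146% and 3.3% of all genes higher and 0% and 1.31% lower.

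Of the selenocysteine pair at 2 µM after 6 h PSTK was higher (0.42) and SEPSECS lower (-0.84). The 3 trans-editing genes, which clear mischarged tRNA, split as well, AARSD1 (0.20) and DTD2 (0.28) higher and DTD1 lower (-0.33). Of 4 genes of mitochondrial amidation and formylation 1, GATB, was lower (-0.26). In that comparison 31.8% of all genes were lower and 15.5% higher, and lists this short are only described. At 10 µM after 6 h PSTK (0.45) was higher and SEPSECS (-1.07) and DTD1 (-0.59) lower, against 8.84% and 21.2% of all genes. Without replicate 3 they were at 0.35, -0.96 and -0.63, and AARSD1 was also higher (0.30) and MTFMT lower (-0.21). At 10 µM after 24 h none of the selenocysteine, amidation and formylation genes passed, and AARSD1 was higher (0.28), as were 19.5% of all genes. At 2 µM after 24 h 1 trans-editing gene was higher and 1 lower, against 16.6% and 10.8% of all genes. In Ramos 1 amidation and formylation gene was lower at each dose after 6 h, against 9.73% and 10.7% of all genes. PSTK was higher there at 2.5 µM (0.39), as were 17.3% of all genes. None of these short lists had a call in Ramos at 24 h.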

How the data were processed

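RNA from 30 libraries was prepared per the labels with a stranded total-RNA kit after removal of ribosomal RNA. The deposited table gives RPKM values that the authors computed per gene, and their processing notes name RSEM without a version. The aligner, genome build, annotation and use of strand in counting are not given in the sources used here. The table holds no counts, so depth is unknown and no counting interval is given. Where a time tag read 4 h in libraries titled 24 h, the title was used.

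Gene names came from GENCODE release 29 (57388 of 57992 identifiers matched). Each comparison was fitted with limma 3.58.1 in R 4.3.3 (linear model, empirical Bayes with a variance trend) on log2(RPKM + 0.5), over genes with a mean of at least 0.5 RPKM in the libraries compared, with only the groups compared and Benjamini-Hochberg adjustment over all genes tested. Line by treatment was an interaction term. Fold changes on this scale understate those of low genes. With 3 against 3 libraries an exact permutation test cannot go below p = 0.1, so none is given. The scripts were tested on simulated data. Alternatives were pseudocounts of 0.1 and 1, no filter or a mean of 2 RPKM, 3 rescalings (median ratio, quantile and equal sum), no trend, a replicate block, an adjusted p under 0.01, a joint fit of the 5 groups of each line, and leaving out each library. The members and lists were chosen with earlier results of these data known. Values per library are given for the members past the threshold with the largest changes (up to 8 cytosolic and 4 mitochondrial in HCT116 at 10 µM for 24 h, up to 4 in each other comparison) and for AARS, WARS, QARS and TARSL2, and other members by counts, ranges or fold changes. In members picked for the largest changes, groups that do not overlap follow largely from that choice. 1 marker of the list is not reported here. Figures were drawn with matplotlib 3.10.9.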

Additional observations from a re-analysis of the deposited data

Results flagged for a closer look

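The members below changed differently in the 2 lines by the interaction test (limma, adjusted p under 0.05), given as the HCT116 log2 fold change minus that in Ramos. At 24 h (10 µM in HCT116, 2.5 µM in Ramos) the lower ones were AARS (-0.65), GARS (-0.63), SARS (-0.63), CARS (-0.44), TARS (-0.40), PARS2 (-0.39), EPRS (-0.36), VARS (-0.35), IARS (-0.33), YARS (-0.30), LARS (-0.25), QARS (-0.22), NARS2 (-0.22) and MARS (-0.20). The higher ones were WARS (0.43) and AARS2 (0.28). At 6 h (2 µM in HCT116, 2.5 µM in Ramos) the lower ones were AARS (-1.07), PARS2 (-0.94), TARS2 (-0.84), TARSL2 (-0.78), EPRS (-0.69), CARS (-0.55), SARS (-0.47), GARS (-0.45), VARS (-0.43), VARS2 (-0.40), QARS (-0.39), IARS (-0.39), HARS2 (-0.36), DARS (-0.34), AARS2 (-0.32), MARS (-0.28), TARS (-0.27) and YARS (-0.25). The higher one was WARS (0.76). The doses, the delivery reagent and its medium described for HCT116, and the line cannot be told apart in these differences.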

How the results depend on the processing

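Over all 37 members and the 8 comparisons with untreated cells, 1887 alternative values belonged to a member called, of which 1654 kept direction and call, 233 lost the call and 4 of these turned sign, all under an equal sum of RPKM (MARS2 at -0.03 and -0.14 in HCT116 at 2 and 10 µM for 6 h, CARS2 at -0.04 at 10 µM for 6 h and IARS2 at -0.05 at 10 µM for 24 h). Of 3145 values of members not called, 114 became called, 54 of them under an equal sum. The lost calls came from leaving out a library (94), an equal sum (32), an adjusted p under 0.01 (30), the fit over all 5 groups (25), no trend (17), no filter (13), the replicate block (9), median-ratio scaling (8) and quantile normalization (5). These tallies and the values without replicate 3 for other lists were chosen after seeing the data. For the members with the largest changes in each comparison, 549 of 561 alternative values kept direction and call and none turned sign. The 12 that lost it were AARS2, FARS2, SARS2 and CARS2 (0.21, 0.15, 0.11 and 0.09) in HCT116 at 10 µM for 24 h and TARS2 (-0.26) in Ramos at 0.5 µM for 6 h under an equal sum of RPKM, the same 4 mitochondrial genes with EPRS and IARS in the fit over all 5 groups (adjusted p between 0.053 and 0.13), and WARS in Ramos at 2.5 µM for 24 h without the variance trend. The cause was not tested.

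The numbers of members called that moved by over 1.5 times were as follows, the main number first. With an equal sum they were 13 and 4 (Ramos 0.5 µM 6 h), 1 and 25 (Ramos 2.5 µM 24 h), 16 and 9 (Ramos 0.5 µM, 24 h against 6 h), 16 and 28 (lines at 24 h) and 19 and 34 (lines at 6 h). With median-ratio scaling they were 18 and 10 (HCT116 2 µM, 24 h against 6 h) and 7 and 4 (HCT116 10 µM, 24 h against 6 h). With all 5 groups in one fit they were 16 and 5 (HCT116 2 µM 24 h), 20 and 6 (HCT116 10 µM 24 h), 1 and 4 (Ramos 2.5 µM 24 h), 7 and 25 (HCT116 10 µM, 24 h against 6 h). Without the trend they were 13 and 8 (Ramos 0.5 µM 6 h), 1 and 0 (Ramos 2.5 µM 24 h) and 7 and 3 (HCT116 10 µM, 24 h against 6 h), and with no filter 7 and 0 for that last comparison. At an adjusted p under 0.01 they were 20 and 13 (HCT116 10 µM 6 h), 13 and 8 (Ramos 0.5 µM 6 h), 18 and 11 (Ramos 2.5 µM 6 h), 18 and 9 (HCT116 2 µM, 24 h against 6 h), 7 and 0 (HCT116 10 µM, 24 h against 6 h) and 16 and 9 (lines at 24 h).

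In no comparison did the deviations of same-numbered libraries correlate above 0.1 in all 3 pairs (correlations between -0.22 and 0.18). All 3 were positive in HCT116 at 10 µM for 6 h (0.06, 0.14 and 0.09) and between the untreated lines (0.04, 0.06 and 0.12). The replicate block, used all the same, gave 1 in place of 7 (HCT116 10 µM, 24 h against 6 h) and 10 in place of 16 (lines at 24 h). It moved no other number by over 1.5 times. Leaving out one library at a time gave 21 to 26 members called (HCT116 2 µM 6 h), 10 to 26 (10 µM 6 h), 13 to 16 (2 µM 24 h) and 17 to 20 (10 µM 24 h), 8 to 14 (Ramos 0.5 µM 6 h), 12 to 18 (2.5 µM 6 h), 0 to 0 (0.5 µM 24 h) and 1 to 3 (2.5 µM 24 h), for 24 h against 6 h 11 to 18 and 0 to 21 (HCT116 2 and 10 µM) and 11 to 15 and 18 to 19 (Ramos 0.5 and 2.5 µM), 0 to 0 (HCT116 doses at 24 h), 27 to 30 (untreated lines), 10 to 16 (lines at 24 h) and 15 to 22 (lines at 6 h).

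The cytosolic minus mitochondrial median moved beyond the spread between replicates under quantile normalization, to -0.50 and -0.48 (HCT116 2 and 10 µM 6 h) and -0.077 (Ramos 2.5 µM 24 h), and to -0.20 (Ramos 2.5 µM 6 h) with TARSL2 among the genes ending in 2. Depth is unknown, so no limit from counting error can be given.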
